A study of Mus musculus with 13 samples.

Results

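The transcripts of 9 mitochondrial enzyme subunits of the tricarboxylic acid (TCA) cycle were measured by RNA sequencing of pancreas from 13 female mice. The genes were chosen by name and are Cs, Idh2, Idh3a, Ogdh, Dlst, Sdha, Sdhb, Fh1 and Mdh2. All 9 were found among the 23366 genes of the table. Every mouse was of the reprogrammable i4F-B strain, whose doxycycline-inducible transgene encodes OCT4, SOX2, KLF4 and MYC (OSKM), is described as ubiquitous and sits inside the Pparg gene. The young group held 4 mice of 13 weeks and the old group 5 mice of 55 weeks, none of which received doxycycline. The old-OSKM group held 4 mice that took doxycycline for 1 week from the age of 55 weeks, recovered for 2 weeks and are labelled as 58 weeks old. Doxycycline itself and the OSKM factors cannot be told apart in this design, and neither can the treatment and those extra weeks of age. According to the paper the doxycycline was given in drinking water with sucrose, and sucrose for the untreated mice is not mentioned. Its part cannot be told apart either. Each mouse gave 1 library, so the SD and the p-values below describe the spread between mice.

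The TCA cycle runs in the mitochondrial matrix and oxidizes the acetyl group of acetyl-CoA to carbon dioxide, passing electrons to NADH and FADH2 for the respiratory chain. It also supplies carbon skeletons for amino acids, fatty acids and heme. The exocrine pancreas is made up mostly of acinar cells, which spend much energy on the synthesis of digestive enzymes, and mitochondria of the insulin-secreting beta cell couple fuel oxidation to hormone release. A bulk library averages all these cells, and fewer cells of a type and less RNA per cell cannot be told apart in it.

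Levels are given as RPKM, read numbers scaled by transcript length and by the total of mapped reads, as the authors estimated them, put on a log2 scale and quantile normalized. The counts behind them are unknown, and so is the depth of each mouse. Because of the scaling by length, levels can be compared between genes. The pancreatic identity of the libraries was plain, with the summed RPKM of 17 acinar markers between 14524 and 15997 in the 13 mice. The acinar genes Amy2a5, Cela2a and Ctrb1 had the same value in all 13 mice, because quantile normalization fixes the top ranks. One library, that of old-OSKM mouse 4, stood apart from the others. Over the 8410 genes with a mean log2 RPKM over 0, the SD of its deviations from the gene means was 0.457, against 0.141 to 0.248 in the other mice. The main results for the members, and some of those for related genes, are given with and without it.

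All 9 transcripts were well expressed, between percentiles 84.9 and 97.8 of all genes by mean log2 RPKM. Sdhb and Idh2 stood at the top with mean log2 RPKM of 3.14 and 3.12, and their order was not stable, since Sdhb was the higher one in 9 of 13 mice. Ogdh and Mdh2 followed at 2.67 and 2.66, with Ogdh higher in 8 of 13 mice. Sdha at 2.53 and Cs at 2.44 came next, each above its lower neighbour and below its higher neighbour in at least 11 of 13 mice. Dlst lay at 1.85, Fh1 at 1.70 and Idh3a at 1.36, with Dlst above Fh1 in 11 mice and Fh1 above Idh3a in all 13. Unequal levels thus occurred within one enzyme complex, as for Dlst below Ogdh and Sdha below Sdhb.

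The sequences just before the transcription starts are shown for 4 members, chosen by their spread among the 4 old-OSKM mice, where Sdhb and Fh1, along with Idh3a, varied most and Sdha and Idh2 least. That order rests on old-OSKM mouse 4, since among the other 3 mice the SD on the log2 scale was 0.054 for Fh1, 0.082 for Sdhb, 0.081 for Idh2 and 0.039 for Sdha. Shown are the 100 bases before the start on the strand of the gene, from RefSeq on GRCm38.p6, the same assembly as mm10. Capitals mark matches to the motifs searched, ATTGG being CCAAT on the other strand and GCATGCGC being GCGCATGC on the other strand.
Sdhb, chr4:140961171-140961270, plus strand: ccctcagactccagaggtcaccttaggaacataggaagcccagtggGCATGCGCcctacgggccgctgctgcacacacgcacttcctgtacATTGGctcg
Fh1, chr1:175625636-175625735, minus strand: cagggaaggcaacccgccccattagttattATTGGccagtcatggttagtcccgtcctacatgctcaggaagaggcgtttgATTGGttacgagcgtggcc
Sdha, chr13:74350241-74350340, minus strand: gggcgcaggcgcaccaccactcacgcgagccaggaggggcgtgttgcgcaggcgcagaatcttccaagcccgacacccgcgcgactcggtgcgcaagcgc
Idh2, chr7:80115351-80115450, minus strand: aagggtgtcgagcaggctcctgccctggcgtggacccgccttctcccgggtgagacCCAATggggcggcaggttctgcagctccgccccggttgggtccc

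The search covered both strands of windows of 300 bases, 250 before and 50 after the start, which the table gave for 8 of the 9 members, Idh3a being the other. CCAAT, the box bound by NF-Y, was found for 6 of these 8 genes (Cs, Idh2, Ogdh, Sdha, Sdhb and Fh1) and for 41.1% of all 27025 genes with a window. GCGCATGC, a core of the NRF1 motif, occurred for Sdhb and Ogdh and for 3.05% of all genes. CCGGAAG, an ETS motif that GABP can bind, occurred for Sdhb and Dlst and for 9.93% of all genes. The ERR motif CAAGGTCA, found for 1.76% of all genes, and the E-box CACGTG, found for 8.09%, were seen among the members only for Ogdh, which has 6 windows where the other members have 1 each. None of the 5 motifs was found for Mdh2. These matches describe the letters only.

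Citrate synthase, encoded by Cs on chromosome 10, joins acetyl-CoA and oxaloacetate. Cs RPKM was 5.50, 5.80, 5.24 and 5.15 in young mice, 5.83, 5.30, 5.62, 5.62 and 5.57 in old mice, and 5.42, 5.73, 5.63 and 4.37 in old-OSKM mice. The groups overlapped, and the value of old-OSKM mouse 4 was the lowest of all.

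Isocitrate is oxidized by NADP-dependent Idh2 and by the NAD-dependent enzyme whose catalytic subunit is Idh3a. Idh2 RPKM was 8.82, 10.2, 9.17 and 8.40 in young mice, 8.84, 8.87, 8.15, 8.29 and 7.71 in old mice, and 8.36, 9.17, 9.26 and 7.98 in old-OSKM mice. Its highest value came from a young mouse and its lowest from an old mouse, so old-OSKM mouse 4 was not at the extreme here. Idh3a RPKM was 3.29, 2.67, 2.74 and 2.28 in young mice, 3.04, 2.22, 2.63, 2.85 and 2.21 in old mice, and 3.01, 3.08, 2.49 and 1.53 in old-OSKM mice. Idh3a was the most variable member within each group, with SDs of 0.22, 0.21 and 0.47 on the log2 scale in young, old and old-OSKM mice, the last of which was 0.17 without old-OSKM mouse 4.

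Ogdh and Dlst encode the E1 and E2 components of the 2-oxoglutarate dehydrogenase complex, which forms succinyl-CoA. Ogdh RPKM was 6.55, 6.55, 6.28 and 5.64 in young mice, 6.79, 5.78, 6.41, 6.55 and 6.38 in old mice, and 6.58, 6.81, 6.81 and 5.71 in old-OSKM mice. Its lowest value was that of young mouse 4. Dlst RPKM was 4.03, 3.37, 3.68 and 3.57 in young mice, 3.67, 3.46, 3.51, 3.51 and 3.72 in old mice, and 3.80, 3.84, 3.67 and 3.04 in old-OSKM mice. Old-OSKM mouse 4 was lowest for Dlst, and the remaining 12 mice overlapped across the groups.

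Succinate dehydrogenase links the cycle to the respiratory chain as complex II. Its flavoprotein is encoded by Sdha and its iron-sulfur subunit by Sdhb. Sdha RPKM was 5.93, 6.03, 5.58 and 5.58 in young mice, 5.78, 5.71, 5.59, 5.85 and 5.65 in old mice, and 5.93, 6.17, 5.87 and 5.53 in old-OSKM mice. Sdha was the steadiest member, with SDs of 0.058, 0.025 and 0.066 on the log2 scale in the young, old and old-OSKM groups. Its SD in the last group without old-OSKM mouse 4 was 0.039, above the 0.029 of Ogdh. Sdhb RPKM was 8.89, 9.95, 9.13 and 7.52 in young mice, 9.35, 8.94, 9.22, 9.41 and 8.95 in old mice, and 9.08, 9.91, 10.1 and 5.25 in old-OSKM mice. Old-OSKM mouse 4 lay far below the other mice for Sdhb, while for Sdha it was lowest by a small margin.

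Fumarate hydratase, encoded by Fh1, makes malate, and the mitochondrial malate dehydrogenase Mdh2 closes the cycle by regenerating oxaloacetate. Fh1 RPKM was 3.44, 3.42, 3.37 and 2.97 in young mice, 3.62, 3.33, 3.63, 3.42 and 3.10 in old mice, and 3.52, 3.64, 3.37 and 1.90 in old-OSKM mice. Here too old-OSKM mouse 4 was far below the rest, and young mouse 4 was the next lowest. Mdh2 RPKM was 6.59, 6.25, 6.93 and 5.56 in young mice, 6.55, 6.33, 6.60, 6.32 and 5.94 in old mice, and 6.42, 6.95, 6.42 and 5.37 in old-OSKM mice. The same mice, old-OSKM mouse 4 and then young mouse 4, were lowest for Mdh2.

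**Figure D1:**
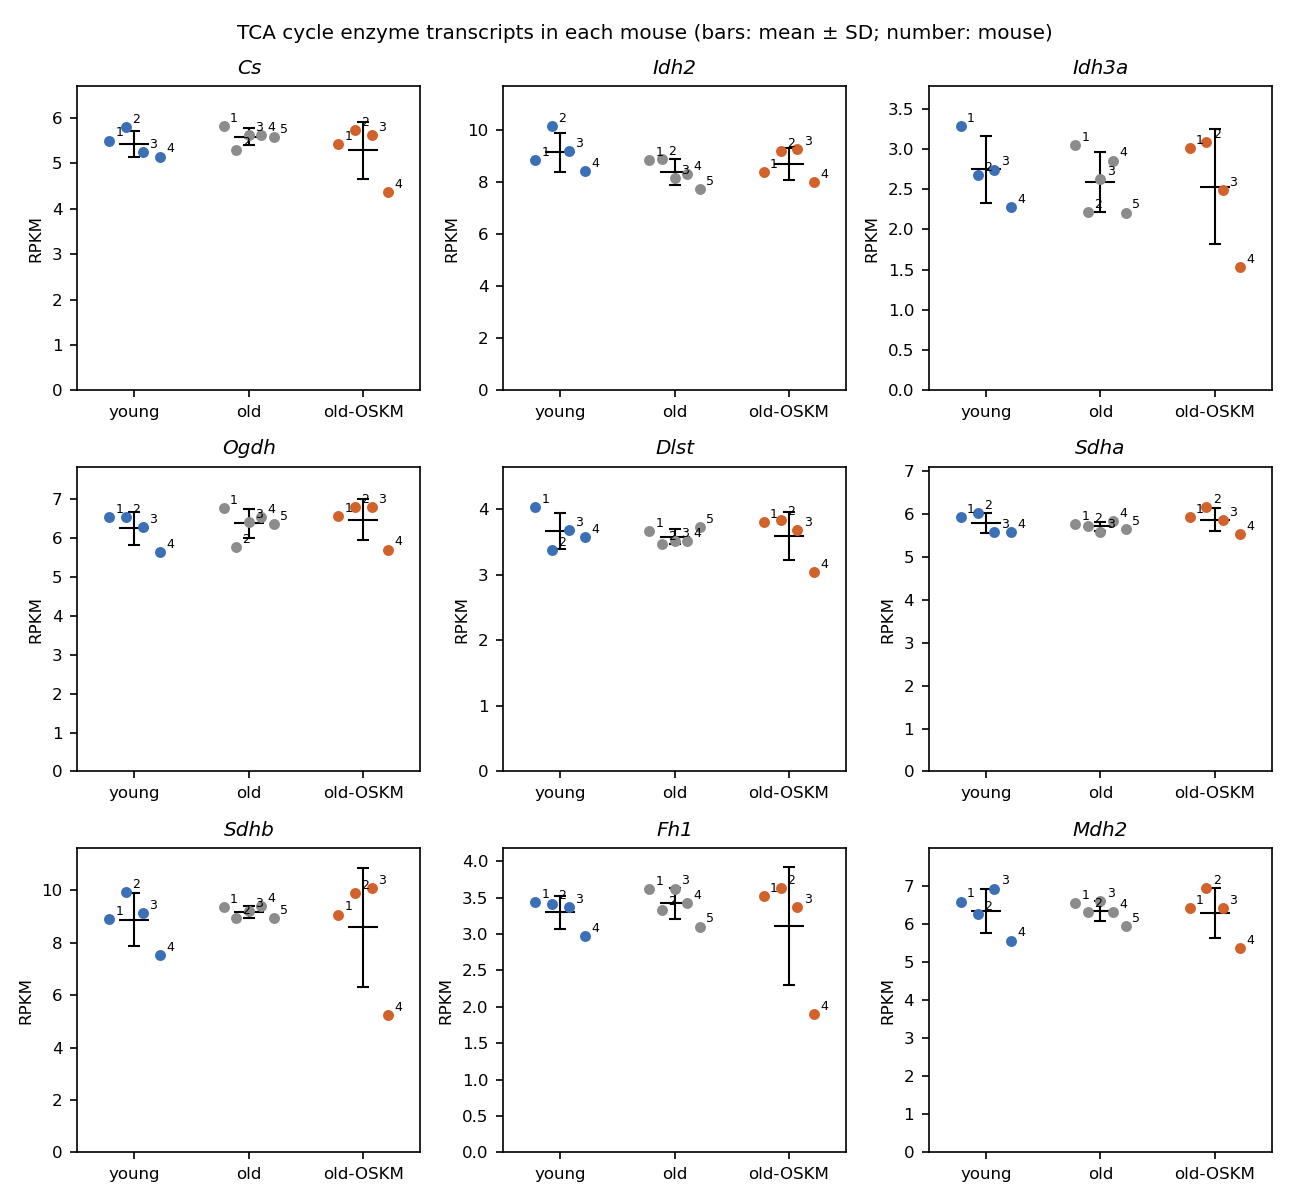
RPKM of the 9 TCA cycle enzyme transcripts (vertical axes, from 0) in each young, old and old-OSKM mouse (points, numbered by mouse), with the mean and SD of the RPKM of each group as black bars. Old-OSKM mouse 4 is the lowest of the 13 mice in 7 of the 9 panels, all but Idh2 and Ogdh.

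Aging was addressed by comparing old with young mice. No TCA cycle transcript passed the test, and the differences were small in both directions. Idh2 had the largest. Its mean log2 RPKM was 3.19 ± 0.12 (SD, n = 4) in the young and 3.06 ± 0.085 (SD, n = 5) in the old group. The difference of -0.12 had a 95% confidence interval from -0.28 to 0.03 (limma, adjusted p = 1). Idh3a came second at -0.08, with an interval from -0.52 to 0.35 (limma, adjusted p = 1). Dlst (-0.03) and Sdha (-0.02) were also below 0, and Cs (0.04), Ogdh (0.03), Sdhb (0.06), Fh1 (0.05) and Mdh2 (0.01) were above it. Thus 4 of the 9 members were below 0, where 45.5% of all genes were, and the median difference of the members was 0.0071 against 0.0012 over all genes. None of the 9 met the call rule of a fold change over 1.5 with a raw p under 0.01, which 0.886% of all genes met, and none had a raw p under 0.05, as 5.52% of all genes did. None had an adjusted p under 0.05 (0.0813% of all genes) or old values that did not overlap the young values (2.71% of all genes). The intervals bound a change of Sdha between -0.11 and 0.08 on the log2 scale, while for Sdhb and Fh1 they reach from -0.31 to 0.42 and from -0.31 to 0.41. Because the 3 groups were fitted together, the spread of old-OSKM mouse 4 enters these intervals. In the fit without that mouse they ran from -0.10 to 0.21 for Sdhb, from -0.08 to 0.19 for Fh1 and from -0.37 to 0.21 for Idh3a. The differences were the same, and none of the 9 had a raw p under 0.05, as 7.7% of all genes did. In two-sided exact permutation tests the lowest p of the 9 members was 0.111, for Idh2. Among the 10 mice with sample identifiers up to 621, 7 of the 9 members were below 0. This subset, chosen after seeing the data, leaves out young mice 3 and 4 and old mouse 5. Leaving out young mouse 4 alone also gave 7 of the 9. The share of all genes below 0 was not counted in either case.

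The effect of transient reprogramming was addressed by comparing old-OSKM with old mice. Again no member passed the test. The largest differences were those of Fh1 and Sdhb, both through old-OSKM mouse 4. The mean log2 RPKM of Fh1 was 1.77 ± 0.093 (SD, n = 5) in the old and 1.59 ± 0.44 (SD, n = 4) in the old-OSKM group. The difference was -0.18 with a 95% confidence interval from -0.54 to 0.18 (limma, adjusted p = 0.626). For Sdhb the difference was -0.14, with an interval from -0.51 to 0.22 (limma, adjusted p = 0.693). Cs (-0.09), Idh3a (-0.08) and Mdh2 (-0.02) were below 0 as well, Dlst was at 0.00016, and Idh2 (0.05), Ogdh (0.02) and Sdha (0.04) were above 0. Thus 5 of 9 members were below 0, as were 63.1% of all genes, and the median of the members was -0.02 against -0.04 over all genes. No member met the call rule (0.753% of all genes), had a raw p under 0.05 (8.07%), had an adjusted p under 0.05 (0.00428%), or had groups that did not overlap (1.73%). In two-sided exact permutation tests the lowest p was 0.254, for Sdha.

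Without old-OSKM mouse 4 the direction turned. All 9 members were then higher in the 3 old-OSKM mice than in the 5 old mice, with a median difference of 0.08. Of all genes 37.2% were higher, and of the 8410 genes with a mean log2 RPKM over 0, 3775 were. Fh1 moved to 0.04 (limma, adjusted p = 0.916) and Sdhb to 0.08 (limma, adjusted p = 0.907). Idh3a had the largest difference, 0.15 with an interval from -0.17 to 0.46, and Sdha the lowest raw p, with a difference of 0.07 and an interval from -0.02 to 0.15 (limma, adjusted p = 0.801). None of the 9 had a raw p under 0.05 in this fit, in which 6.23% of all genes did.

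Old-OSKM and young mice share the old-OSKM mice with the comparison above and the young mice with the first one. Idh3a had the largest difference, -0.16 with a 95% confidence interval from -0.62 to 0.30 (limma, adjusted p = 0.766), and Fh1 followed at -0.13 with an interval from -0.51 to 0.25 (limma, adjusted p = 0.766). Of the 9 members 7 were below 0, all but Ogdh and Sdha, where 61.3% of all genes were below 0. None met the call rule (0.625% of all genes), had a raw p under 0.05 (5.07%), had an adjusted p under 0.05 (0.0428%), or had groups that did not overlap (1.9%). Without old-OSKM mouse 4, 8 of the 9 were above 0. In that fit 37.9% of all genes were above 0, as were 4086 of the 8410 genes with a mean log2 RPKM over 0. Idh2 remained below 0 at -0.03 with an interval from -0.19 to 0.13. Idh2 was thus highest in young mice by group mean, with means of 9.11, 8.36 and 8.68 RPKM (geometric) in young, old and old-OSKM mice, differences that lay within the spread between mice.

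**Figure D2:**
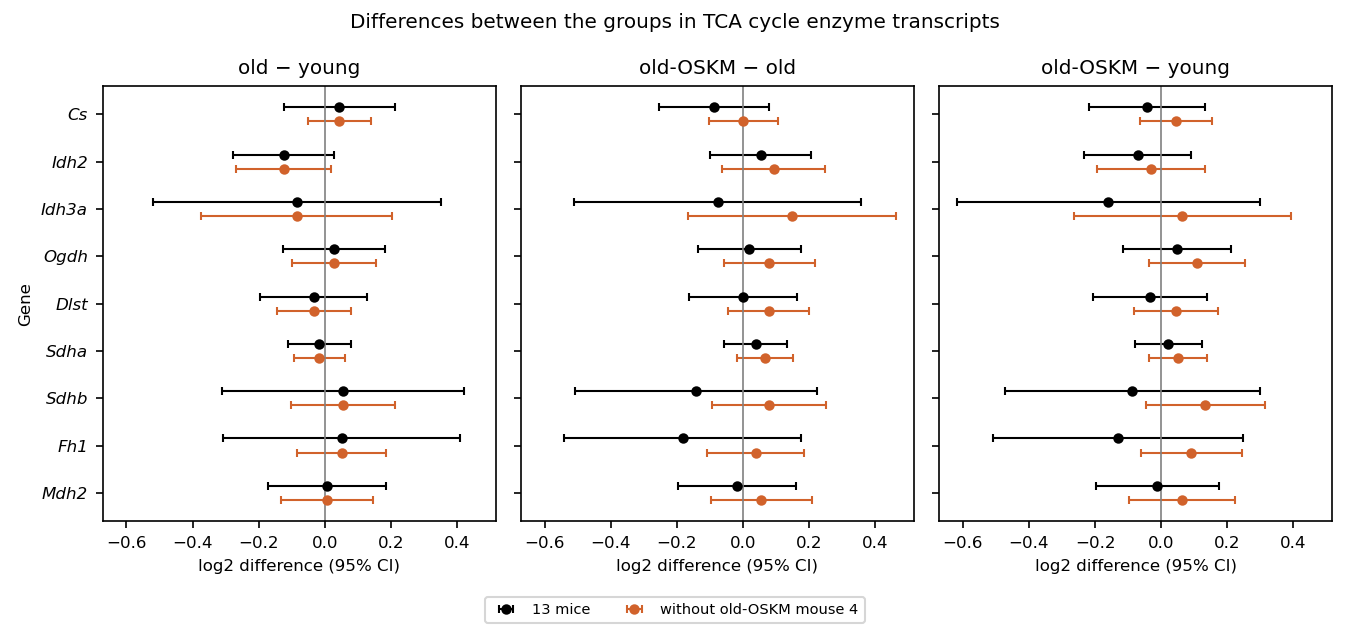
Differences of group means in log2 RPKM for the 9 TCA cycle enzymes, with 95% confidence intervals from limma, for all 13 mice (black) and without old-OSKM mouse 4 (orange). Every interval includes 0, and the 9 orange points for old-OSKM minus old lie above 0.

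The largest difference among these transcripts was thus that between old-OSKM mouse 4 and the other mice of its group, which is a description of 1 library and not of the treatment. On the log2 scale this mouse lay below the mean of the other 3 old-OSKM mice by -0.90 for Idh3a, -0.88 for Sdhb and -0.88 for Fh1, which left 53.7%, 54.2% and 54.2% of their level. Cs (-0.35), Dlst (-0.31) and Mdh2 (-0.30) were intermediate, and Ogdh (-0.24), Idh2 (-0.16) and Sdha (-0.12) were closest to the other 3. The mouse had the lowest value of all 13 for 7 of the 9 members, and for 44.7% of all genes and 36.2% of the 8410 genes with a mean log2 RPKM over 0. Among all genes 61.7% were lower in this mouse than in the other 3, with a median difference of -0.10, against 9 of 9 members with a median of -0.31. The summed RPKM of acinar markers was lowest in this mouse, at 14524 against 15211 to 15997 in the other 12, with 6 of the 17 markers lowest and 2 highest here. The count of lowest markers is near the 36.2% given above. The sums of several other marker lists were at their highest in the same pancreas. Summed RPKM was 433 against 68.2 to 351 for 9 beta cell markers, 53.6 against 36.0 to 49.7 for 8 duct markers, 73.7 against 20.8 to 54.7 for 8 fibroblast and stellate markers, and 22.1 against 9.80 to 17.8 for 6 endothelial markers. It was also highest for adipocyte markers, of which the defining gene Adipoq had a mean log2 RPKM below -2, and for 6 muscle markers, at 2.71 against 1.75 to 2.44. By gene, 5 of 9 beta cell, 5 of 8 duct, 5 of 8 fibroblast and stellate, 5 of 6 endothelial, 2 of 8 adipocyte and 1 of 6 muscle markers had their highest value in this mouse, as did 2015 of the 8410 genes with a mean log2 RPKM over 0, and 1 duct and 3 muscle markers had their lowest. The part of these cell types in the lower enzyme transcripts was not tested. Summed macrophage markers were highest in old-OSKM mouse 1, at 40.9, and were 34.3 in old-OSKM mouse 4. They reached at most 22.3 in young and 17.5 in old mice. The 9 members had a mean deviation of 0.06 from the gene means in old-OSKM mouse 1. The part of macrophages in the levels of the members was not tested either.

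Ratios between members compare transcripts within a mouse. The log2 ratio of Sdhb to Sdha was 0.58, 0.72, 0.71 and 0.43 in young mice, 0.69, 0.65, 0.72, 0.69 and 0.66 in old mice, and 0.61, 0.68, 0.78 and -0.07 in old-OSKM mice. Sdhb thus exceeded Sdha in 12 mice and was slightly below it in old-OSKM mouse 4. The log2 ratio of Mdh2 to Fh1 was 0.94, 0.87, 1.04 and 0.91 in young mice, 0.86, 0.92, 0.87, 0.88 and 0.94 in old mice, and 0.87, 0.93, 0.93 and 1.5 in old-OSKM mice. The single high value again belonged to old-OSKM mouse 4. The ratio of Idh3a to Idh2 ranged from -2.38, also in old-OSKM mouse 4, to -1.42, that of Dlst to Ogdh from -0.96 to -0.66, and that of Mdh2 to Cs from 0.09 to 0.40. In 15 two-sided exact permutation tests of 5 ratios in 3 comparisons, the lowest p was 0.12, for Mdh2 to Fh1 and Mdh2 to Cs in old-OSKM against old mice, with differences of 0.16 and 0.07. All 15 adjusted p-values were 0.8. The smallest p these exact tests allow is 0.0079 for 4 against 5 mice and 0.029 for 4 against 4.

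**Figure D3:**
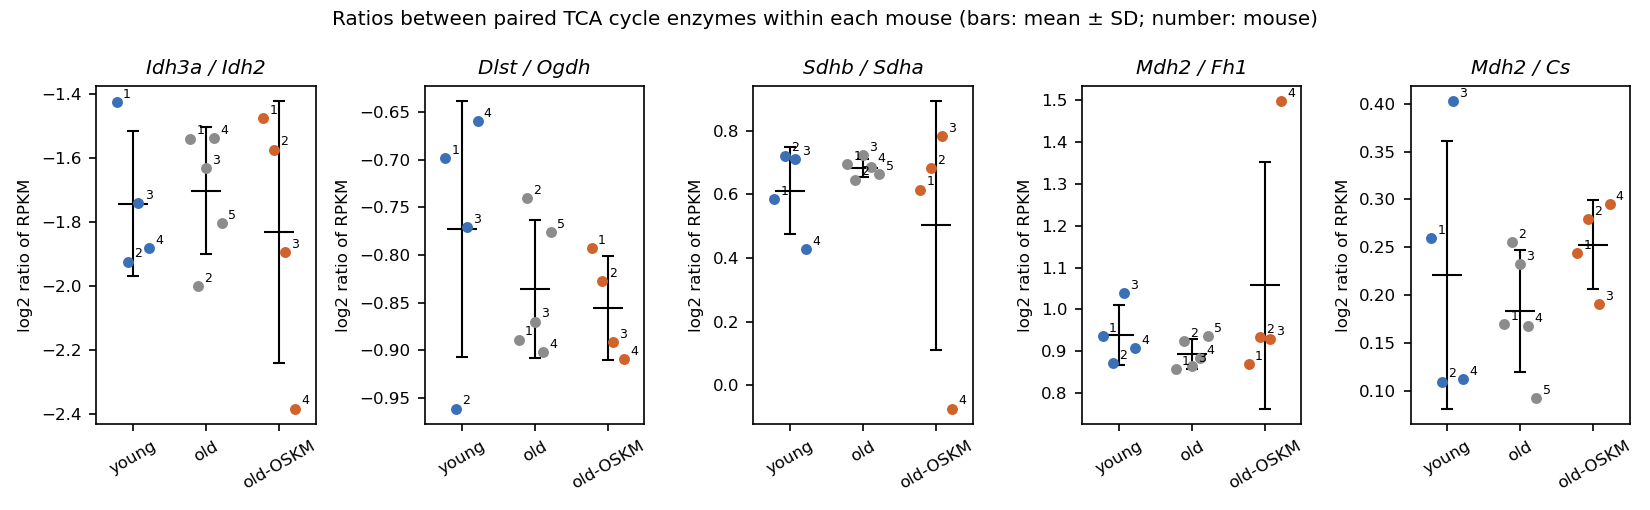
Log2 ratios of RPKM (vertical axes) between paired TCA cycle enzymes within each mouse (points, numbered by mouse), with group mean and SD as black bars. Old-OSKM mouse 4 is the lowest point for Sdhb to Sdha, at -0.07, and the highest for Mdh2 to Fh1, at 1.5.

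The 9 transcripts varied together between mice. The mean of the 9 deviations from the gene means was -0.38 in old-OSKM mouse 4 and -0.12 in young mouse 4, the only mice in which all 9 were below their gene mean, and it was between -0.05 and 0.13 in the other 11. Of the 36 pairs of members, all had a positive Pearson correlation over the 13 mice, with a median of 0.66, and without old-OSKM mouse 4 the median was 0.51 and 33 pairs were positive. These are descriptions, since the values share the same libraries and normalization. The genes whose pattern over the 13 mice was most like the mean of the members, out of 8398 other genes with a mean log2 RPKM over 0, were Pgm1 (r = 0.98), Slc25a5 (0.97), Tmem185a (0.97), Ola1 (0.97) and Pycr1 (0.97). After subtraction of the group means they were Asns (0.99), Thop1 (0.98), Slc25a5 (0.98), Pgm1 (0.98) and Mrpl4 (0.98). Slc25a5 is an ADP/ATP carrier of the inner mitochondrial membrane, Pycr1 a mitochondrial enzyme of proline synthesis, Asns the asparagine synthetase and Mrpl4 a protein of the mitochondrial ribosome. Without old-OSKM mouse 4 the correlations of the first 5 genes were 0.91, 0.90, 0.96, 0.88 and 0.89, and those of Asns, Thop1 and Mrpl4 were 0.86, 0.60 and 0.82. The most opposite patterns, looked up after the values were seen, were as strong and included Rbm39 (-0.98), Ddx17 (-0.96) and the nuclear RNA Xist (-0.96). These were higher in old-OSKM mouse 4 than in the other 3 old-OSKM mice, by 1.26, 1.57 and 1.84 on the log2 scale. The part of RNA quality or nuclear RNA in the levels of the members was not tested.

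The remaining genes of the pathway were described from lists set down by name. The 10 other core subunits of the cycle, such as those of aconitase, succinyl-CoA ligase and the rest of complex II, had no raw p under 0.05 in any comparison. Old mice had lower means than young mice for 7 of them, with a median difference of -0.02, and old-OSKM mice had lower means than old mice for 9, with a median of -0.08. Without old-OSKM mouse 4 that median was 0.05, with 8 of 10 higher, and 9 of the 10 had their lowest value in that mouse. The 11 cytosolic and related forms of these enzymes had no raw p under 0.05 either, with medians of -0.02 for aging, -0.05 for old-OSKM against old mice and -0.02 for old-OSKM against young mice. Without old-OSKM mouse 4 the medians of the last pair were 0.10 and 0.04. In that fit a raw p under 0.05 was found for Me2 (-0.23) and Me3 (-0.37) in old against young mice. The same held for Acly (-0.16) and Me2 (0.20) in old-OSKM against old mice, and for Mdh1b (0.54) in old-OSKM against young mice. The adjusted p-values (limma) ran from 0.451 to 0.848. Of all genes, 7.7%, 6.23% and 5.81% had such a raw p in that fit, in the same order of comparisons. Including old-OSKM mouse 4 left the old minus young differences of Me2 and Me3 the same. Their raw p-values (limma) were then 0.24 and 0.203. That mouse enters these p-values only through the spread, since the groups were fitted together.

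Complex I, which takes up the NADH that the cycle forms, was represented by 36 subunits. In old-OSKM mice 31 of them were lower than in old mice, as were 63.1% of all genes, with a median difference of -0.09, and without old-OSKM mouse 4 the count was 12, with a median of 0.01. In that mouse 35 of the 36 were below the mean of its group mates. Of the 36, 2 had a raw p under 0.05 against old mice, a share below the 8.07% of all genes, and both were lower: Ndufa6, with a difference of -0.16 (limma, adjusted p = 0.547), and Ndufs7, with -0.20 (limma, adjusted p = 0.547), which was -0.10 without old-OSKM mouse 4. Against young mice, where 5.07% of all genes had such a p, these were Ndufa6, at -0.17 (limma, adjusted p = 0.706), and Ndufb7, at -0.15 (limma, adjusted p = 0.706). The raw p without old-OSKM mouse 4 was under 0.05 for 3 subunits in both comparisons, which against old mice were Ndufa6 (-0.11), Ndufa1 (0.20) and Ndufc1 (0.17). Of all genes, 6.23% had such a p against old mice in that fit and 5.81% against young mice.

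Fatty acid oxidation delivers acetyl-CoA to the cycle, and 12 of its 20 mitochondrial genes were below 0 for old minus young, with a median difference of -0.01. Acaa2, the thiolase of the last step, had log2 RPKM values of 1.68, 1.83, 1.91 and 1.75 in young mice and of 1.55, 1.62, 1.54, 1.58 and 1.30 in old mice. The groups did not overlap, and the difference was -0.28 with an SE of 0.076 and a raw p under 0.01 (limma, adjusted p = 0.457). In old-OSKM mice Acaa2 was 1.53, 1.55, 1.66 and 1.42, below every young mouse, with a difference from young mice of -0.25 (limma, adjusted p = 0.706). Ech1, an isomerase for unsaturated fatty acids, had a difference between old and young mice of -0.24, also with a raw p under 0.01 (limma, adjusted p = 0.61). Neither gene met the fold change of 1.5. Ech1 was higher in old-OSKM than in old mice by 0.16 (limma, adjusted p = 0.558). Without old-OSKM mouse 4 this difference was 0.21 (limma, adjusted p = 0.679). Of the 20 genes, 11 were higher in old-OSKM than in old mice, with a median of 0.0061, where 63.1% of all genes were lower. Without old-OSKM mouse 4, 14 were higher, with a median of 0.08, as were 37.2% of all genes.

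For the entry of pyruvate, old mice exceeded young mice in 10 of 19 genes and old-OSKM mice were below old mice in 16 of 19, with median differences of 0.0013 and -0.11. For the second comparison 63.1% of all genes were lower, and without old-OSKM mouse 4 the count was 11 of 19, with a median of -0.02. Its 1 gene with a raw p under 0.05 was Pdha1, the E1 alpha subunit of pyruvate dehydrogenase, at -0.17 in old-OSKM against young mice (limma, adjusted p = 0.706). Among 14 genes for the entry and exit of glutamate and aspartate, the cytosolic alanine aminotransferase Gpt had a difference of 0.47 between old and young mice (limma, adjusted p = 0.706). Its mitochondrial counterpart Gpt2 had a difference of -0.24 in old-OSKM against old mice (limma, adjusted p = 0.547), and of -0.31 without old-OSKM mouse 4. Of 16 genes for assembly and lipoylation, Lias, the lipoic acid synthase whose product the 2-oxoglutarate dehydrogenase complex carries, had a difference of -0.15 between old and young mice (limma, adjusted p = 0.843). Of 20 genes for mitochondrial mass and biogenesis, Ppargc1a, a coactivator of mitochondrial genes, had a difference of -0.34 in old-OSKM against old mice (limma, adjusted p = 0.547). Without old-OSKM mouse 4, 2 genes of this list had a raw p under 0.05 in that comparison, as did 6.23% of all genes. They went in opposite directions, Ppargc1a at -0.42 and Tomm40 at 0.27 (limma, adjusted p = 0.707 for both). Gpt, Gpt2, Lias and Ppargc1a were the genes of their lists with a raw p under 0.05 in any comparison of all 13 mice. No gene on these lists met the call rule or had an adjusted p under 0.05 in any of the 3 comparisons.

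**Figure D4:**
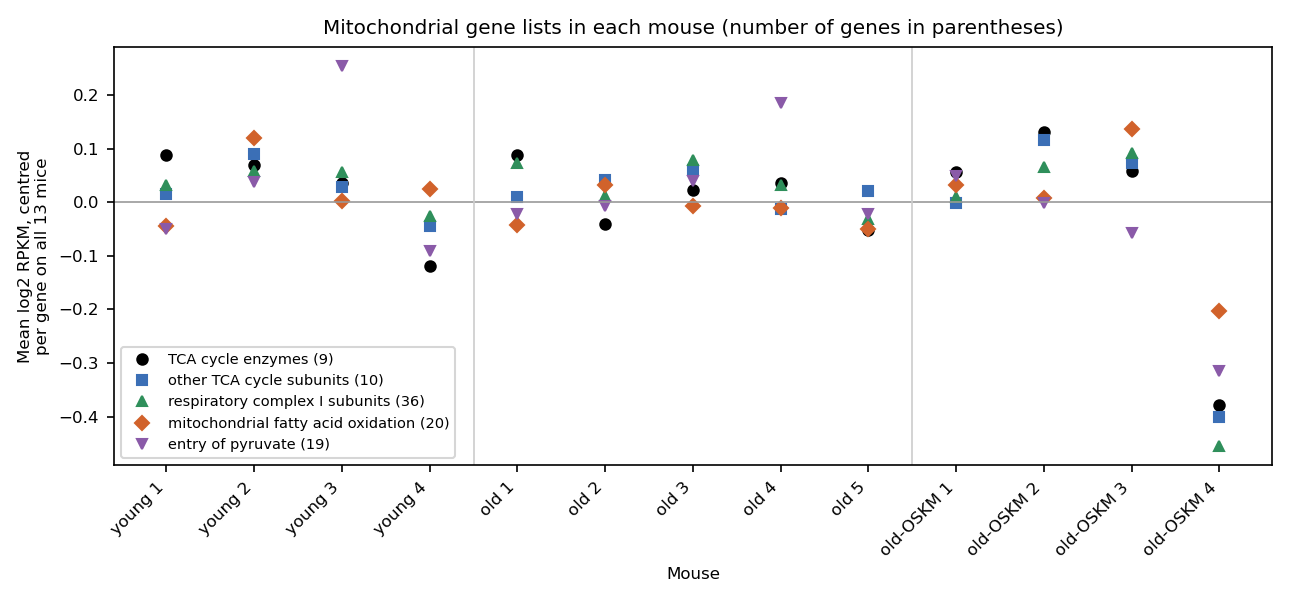
Mean log2 RPKM of the 9 TCA cycle enzymes and of 4 related gene lists in each mouse, centred per gene on the mean of all 13 mice (vertical axis). All 5 lists are lowest in old-OSKM mouse 4, at -0.38 for the TCA cycle enzymes and -0.45 for complex I.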

How the data were processed

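RNA was sequenced from the rRNA-depleted pancreas of 13 mice, 1 library each. The deposited table holds log2 RPKM per Entrez gene: the authors aligned paired-end reads to mm10 with STAR 2.3.0e (version from the submitters' processing notes), estimated RPKM per isoform with Casper, leaving out reads with many locations, summed them per gene, took log2 and quantile normalized. Sorted values of the mice differ by at most 0.0116. Counts and read totals per mouse are not in the table, so counting error is unknown; the correction for read totals that the paper describes was not part of them. Such normalization can shift genes that are not involved when other genes differ between mice.

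Values were used as deposited, with no pseudocount or filter. Symbols were matched for 23273 of 23366 genes (GRCm38.p6). The 3 groups were fitted together with limma 3.58.1 in R 4.3.3, with two-sided tests, 95% confidence intervals and Benjamini-Hochberg adjustment over all genes. The call rule was a fold over 1.5 with a raw p under 0.01. Ratios were compared by exact permutation tests, adjusted over 15. Related gene lists were written by hand from general knowledge. Named are all 9 members, called genes of the lists, the 2 lowest p-values of the lists in each comparison, and the 5 genes most like the members. Gpt, Lias, Ppargc1a, Tomm40, Ndufs7, Pdha1, Ndufb7, Ndufa1, Ndufc1, Me2, Me3, Acly, Mdh1b, Rbm39, Ddx17 and Xist were named after their values were seen. The members and lists were chosen with earlier results of these data known. RPKM was summed per mouse over hand-written markers of the cell types given beside the results; some marker lists are not reported here. The fit was tested on simulated data. Plots used matplotlib 3.10.9 in Python 3.11.15.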

Additional observations from a re-analysis of the deposited data

Results flagged for a closer look

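Of 42 sets of 4 or 5 mice (9 members and 5 ratios in 3 groups), 4 held a mouse whose gap to its nearest neighbour, as a share of the range, was above the Dixon critical value, where chance gives about 1 in 20. Sdhb in old-OSKM mouse 4 had a log2 RPKM of 2.39, against 3.18 to 3.34 in the other 3 mice of the group. Fh1 in the same mouse was at 0.93, against 1.75 to 1.86. The log2 ratio of Mdh2 to Fh1 in that mouse was 1.5, against 0.87 to 0.93. Fh1 in young mouse 4 was at 1.57, against 1.75 to 1.78 in the other young mice.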

How the results depend on the processing

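No member met the call rule or an adjusted p under 0.05 in any alternative limma run. These runs were other normalizations, pseudocounts, filters and covariates, and each mouse left out in turn. The exact permutation test could check these rules only in part. Its smallest p is 0.029 for old-OSKM against young mice, above the 0.01 of the call rule. For the other comparisons it is 0.0079, which is below 0.01. With adjustment over all genes, an adjusted p under 0.05 was in practice out of its reach. Its lowest p for a member was 0.111, for Idh2 in old minus young. The median differences of the members moved by less than 0.142, the SD between mice of their mean deviation. This bound is wide, since it includes old-OSKM mouse 4, and signs changed within it. Without that mouse the median went from -0.02 to 0.08 for old-OSKM minus old. For old-OSKM minus young it went from -0.04 to 0.06. Directions rested on few mice. With 1 mouse left out at a time, the number of members below 0 ran from 2 (without young mouse 1) to 7 (without young mouse 4) for old minus young, from 0 (without old-OSKM mouse 4) to 7 for old-OSKM minus old, and from 1 (without old-OSKM mouse 4) to 8 for old-OSKM minus young. Members with a raw p under 0.05 for old minus young ran from 0 to 1, this 1 being Idh2 without young mouse 4. The share of all genes with such a p was not counted for that run.

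In old minus young, leaving out 1 mouse at a time moved the difference across 0 for Idh3a (-0.17 to 0.0066), Ogdh (-0.020 to 0.064), Dlst (-0.073 to 0.014), Sdha (-0.033 to 0.0045), Sdhb (-0.022 to 0.11) and Mdh2 (-0.054 to 0.052). In old-OSKM minus old it did so for Cs (-0.13 to 0.0014), Idh3a (-0.19 to 0.15), Ogdh (-0.015 to 0.079), Dlst (-0.034 to 0.077), Sdhb (-0.24 to 0.078), Fh1 (-0.27 to 0.039) and Mdh2 (-0.068 to 0.056). In old-OSKM minus young it did so for Cs (-0.084 to 0.046), Idh3a (-0.27 to 0.064), Dlst (-0.073 to 0.044), Sdha (-0.0022 to 0.051), Sdhb (-0.18 to 0.13), Fh1 (-0.22 to 0.091) and Mdh2 (-0.072 to 0.063). Among the log2 ratios it did so for Idh3a to Idh2 in old minus young (-0.020 to 0.15), old-OSKM minus old (-0.25 to 0.055) and old-OSKM minus young (-0.21 to 0.095). The same held for Mdh2 to Cs in old minus young (-0.075 to 0.023) and old-OSKM minus young (-0.00574 to 0.092), and for Dlst to Ogdh in old-OSKM minus old (-0.041 to 0.0039). It also held for Sdhb to Sdha in old-OSKM minus old (-0.27 to 0.011) and old-OSKM minus young (-0.20 to 0.083), and for Mdh2 to Fh1 in old-OSKM minus young (-0.027 to 0.18).

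With the run of sample identifiers as a term, Mdh2 in old minus young became -0.017 and Sdha in old-OSKM minus young -0.00991, and 1 member, Idh2, had a raw p under 0.05 in old minus young. With the mean z-score of all genes as a term, Mdh2 in old minus young became -0.000852. In that fit 0 members were below 0 in old-OSKM minus old, where Cs became 0.019, Idh3a 0.13, Sdhb 0.096, Fh1 0.020 and Mdh2 0.061, and 1 member was below 0 in old-OSKM minus young, where Cs became 0.053, Idh3a 0.026, Dlst 0.022, Sdhb 0.13, Fh1 0.051 and Mdh2 0.060. There 1 member had a raw p under 0.05 in each comparison (Idh2, Sdha and Ogdh). The share of all genes with such a p was not counted in this fit or in that with the run of sample identifiers. Among the 10 mice with identifiers up to 621, an alternative chosen after seeing the data, 7 members were below 0 in old minus young, where Cs became -0.015, Ogdh -0.040 and Sdhb -0.027, and in old-OSKM minus young Ogdh became -0.020 and Sdha -0.028. The cause was not tested. No paired analysis was possible because the labels give no replicate numbers that the groups share.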
